A study of Rattus norvegicus with 24 samples.

Results

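The deiodinases Dio2 and Dio3 and the thyroid hormone receptors Thra and Thrb were followed in rat urethra after simulated vaginal delivery (SVD), an injury made by pudendal nerve crush and vaginal distension. The 4 genes were taken by their symbols from a table of 32883 genes, and each symbol had 1 row. They were chosen by measured values, because Dio3 was lower after both cell treatments at 3d, so the values of the 3d cell-treated groups against saline are given as a description with no test.

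All 24 samples were urethras of adult virgin female Sprague-Dawley rats that had SVD, anaesthesia, heparin and a vasodilator, and then an injection into the aorta. Controls (saline) got the vehicle alone. MABs-allo rats got mesoangioblasts, which are vessel-associated progenitor cells, from the leg muscle of another, young rat. These cells formed 1 cell line. The methods describe a lentiviral reporter of eGFP and firefly luciferase for tracking them, while the paper elsewhere calls MABs-allo untransduced. MABs-allo-VEGF rats got cells made in the same way with a lentiviral vector for VEGF and a truncated CD34, driven by a viral promoter. The labels give this as VEGF OE against WT. The supplement names the reporter or the VEGF vector, so whether these cells carried both is not settled. Urethras were collected 3d or 7d after SVD, with 4 samples in each of 6 groups, and the labels mark 2 of the 4 MABs-allo-VEGF samples at 7d (replicates 6 and 7) as recovery. Uninjured urethras were not analysed here. Nothing in the labels says whether samples of a group share a litter or a day, so the p-values measure the spread between these samples.

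Thyroid hormone reaches cells mainly as the prohormone T4, which type 2 deiodinase (Dio2) turns into the active T3. Type 3 deiodinase (Dio3) does the opposite and inactivates both T4 and T3. It is high in fetal tissue and can be switched on again in injured and regenerating tissue. Thra and Thrb encode nuclear receptors that bind T3 and act on target genes together with retinoid X receptors, corepressors and coactivators. The Thra gene also makes a splice form that does not bind T3. In muscle, the balance of both deiodinases sets how much T3 progenitor cells and fibres receive.

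The values are normalized gene counts, that is reads per gene divided by a size factor of the sample. The libraries were made from the 3ʹ ends of mRNA, so levels are per transcript end and are not corrected for length. Reads were counted per gene, so splice forms of a gene cannot be told apart in these values. Samples held 2170695 to 10166052 reads on genes. At 3d every cell-treated sample had fewer reads than every saline sample, so depth and treatment cannot be told apart there. In a principal component analysis of the 500 most variable genes, saline 3d replicate 6 scored 54.62 on the first component against -52.31 to -6.43 in the other saline 3d samples. MABs-allo-VEGF 3d replicate 4 scored 0.70 against 57.26 to 75.16 in its group. Log2 differences of Dio3, Thra and Thrb that include these 2 samples are given with and without them. Markers of skeletal muscle, of smooth muscle and, in a joint list, of urothelium and squamous epithelium were present in every group. The epithelial sums were low in replicate 8 of saline 3d (1685 normalized counts) and in replicate 2 of MABs-allo-VEGF 3d (1934). The other 3d samples had 14359 to 41472. The same low samples had the lowest smooth muscle sums at 3d, 21268 and 51315. In such bulk samples, fewer cells of a type and less RNA per cell cannot be told apart.

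Dio2 was listed at 0 in all 24 samples, with 0 of 122706104 reads. A count of 0 over all libraries allows up to 0.0244 CPM, the reads of a gene scaled to a common library total, taking 3 reads as the limit, and between 5.0 and 27.7 normalized counts in a single sample. This limit covers counting error only. The reads counted here are those assigned to an annotated gene, and Hsp90aa1, a heat shock protein gene that cells in general use, stood at only 7.21 ± 6.76 (SD, n = 4) normalized counts after MABs-allo at 3d and at 165 ± 278 (SD, n = 4) in saline 3d. Whether transcripts of Dio2 escape this counting was not tested. Dio1, which encodes the third deiodinase and is best known from liver and kidney, had 9 reads in 4 of the 24 samples. Dio3 was thus the deiodinase with reads in every library.

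Dio3 was measured at a low level. Its mean over the 24 samples was 91.0 normalized counts, above 69.7% of the genes in the table, and rested on 641 reads. Thra lay above 97.2% of genes and Thrb above 87.1%. As the values carry no correction for length, these ranks place each gene in the table and do not compare the genes with each other.

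Saline 3d samples had 86.1, 333, 122 and 66.9 normalized counts of Dio3 in replicates 6, 8, 9 and 10. After MABs-allo at 3d the values were 21.3, 27.4, 9.23 and 16.3 in replicates 1 to 4. The groups did not overlap, and every MABs-allo sample lay under the lowest saline sample. Groups without overlap were also found at 14.7% of all genes tested in this comparison and, in this direction, at 5.22%. The mean was 18.5 ± 7.68 (SD, n = 4) after MABs-allo and 152 ± 123 (SD, n = 4) in saline, a log2 difference of -2.77 (standard error 0.66). The MABs-allo values rested on 1 to 5 reads per sample.

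After MABs-allo-VEGF at 3d, Dio3 had 10.8, 41.7, 20.2 and 102 normalized counts in replicates 1 to 4. Replicate 4, which stands apart from its group in the principal component analysis, was the high sample and lay above 2 of the 4 saline samples, so the groups overlapped. Groups were separate at 4% of all genes in this comparison, and at 1.64% in the lower direction. The mean was 43.8 ± 41.2 (SD, n = 4), a log2 difference from saline of -1.94 (standard error 0.66). Without MABs-allo-VEGF replicate 4 and saline replicate 6, the remaining MABs-allo-VEGF samples had at most 41.7 and the remaining saline samples at least 66.9 normalized counts. In this smaller comparison of 3 against 3 samples, groups were separate at 33.1% of all genes and at 11.8% in the lower direction. The means were then 24.2 ± 15.8 (SD, n = 3) and 174 ± 141 (SD, n = 3), and the log2 difference was -2.67. The log2 difference of MABs-allo from saline was -2.94 in the same samples. Without saline replicate 8, the highest sample, MABs-allo differed from saline by -2.30 on the log2 scale and MABs-allo-VEGF by -1.47. Both cell-treated groups were compared with the same saline samples. The MABs-allo-VEGF group had 2 to 23 reads per sample.

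To set these values beside the depth, the reads of each group were summed. Dio3 had 163 reads in saline 3d, 12 after MABs-allo and 34 after MABs-allo-VEGF, or 8.17 (95% Poisson interval 6.96 to 9.52), 0.884 (0.457 to 1.55) and 2.24 (1.55 to 3.13) CPM. The intervals of both cell-treated groups lay under that of saline. They cover counting error only, not the spread between samples, and are no test. Replicate 8 held 85 of the saline reads, and replicate 4 held 23 of those after MABs-allo-VEGF. At 7d the same measure was 6.64 (5.64 to 7.775) in saline, 3.72 (3.03 to 4.53) after MABs-allo and 7.43 (6.37 to 8.61) after MABs-allo-VEGF. The intervals of saline and MABs-allo were thus separate at 7d too, where the test given below did not call Dio3. The share of all genes with separate intervals is not given, so separation cannot be read as particular to Dio3 at 3d or 7d.

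At 7d, saline samples had 101, 139, 117 and 107 normalized counts of Dio3 in replicates 1, 2, 3 and 5. MABs-allo samples had 18.6, 39.7, 63.4 and 183 in replicates 7.2, 9, 11 and 13. MABs-allo-VEGF samples had 149, 154, 180 and 75.7 in replicates 6, 7, 11 and 12. Saline was tight and MABs-allo was wide, with 3 samples under all saline samples and 1 above them, so no pair of groups was separate. Groups were separate at 4.87% of all genes for MABs-allo against saline, at 6.04% for MABs-allo-VEGF against saline and at 1.84% for MABs-allo-VEGF against MABs-allo. The means were 116 ± 16.8, 76.1 ± 73.3 and 140 ± 44.8 (SD, n = 4 each).

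The rule that chose the genes used no values of these 7d samples, although earlier results of these data were known. Dio3 was therefore tested in these samples with limma, fitted across 16287 genes and adjusted by Benjamini-Hochberg. A gene was called at an adjusted p below 0.05 and a log2 difference beyond 1. The log2 difference of MABs-allo from saline was -1.07 (standard error 0.66, adjusted p = 0.879 from limma). For MABs-allo-VEGF against saline it was 0.20 (standard error 0.66, adjusted p = 0.994 from limma), and for MABs-allo-VEGF against MABs-allo 1.27 (standard error 0.66, adjusted p = 1 from limma). None passed. The share of all genes called was 0% in each of these 3 comparisons, while 1014, 1033 and 452 genes had an unadjusted p below 0.05. edgeR on the reads called 0 in each, and DESeq2 called 0, 29 and 4. The MABs-allo difference at 7d was -0.57 without replicate 7.2, the lowest sample, and -1.65 without replicate 13, the highest.

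**Figure D1:**
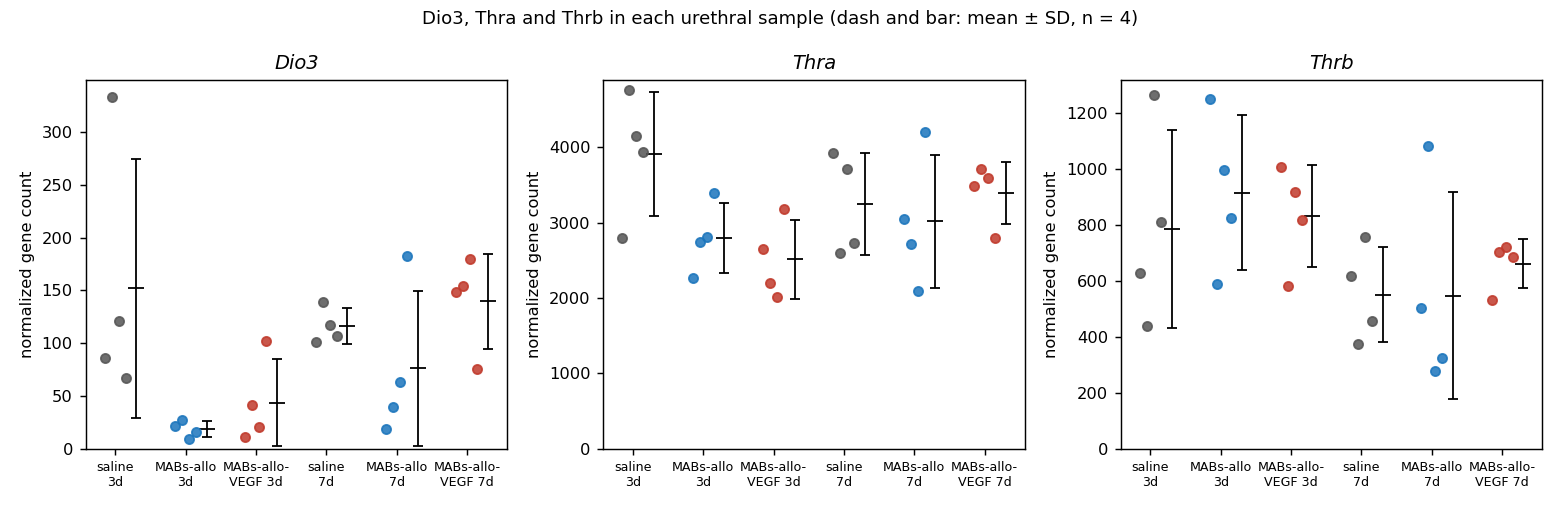
Normalized gene counts (vertical axes, from 0) of Dio3, Thra and Thrb in each urethral sample of the 6 groups (horizontal axes), with a point for each sample and a dash and bar for the mean and SD of the 4 samples. The 4 MABs-allo 3d points of Dio3 sit between 9.23 and 27.4, under every saline 3d point, while Thra and Thrb overlap between the groups.

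Ordered by their means, the groups ran from saline 3d (152), MABs-allo-VEGF 7d (140), saline 7d (116), MABs-allo 7d (76.1) and MABs-allo-VEGF 3d (43.8) to MABs-allo 3d (18.5) for Dio3. Each group overlapped its neighbours in this order. The place of saline 3d rested on replicate 8, without which its mean was 91.5 ± 27.7 (SD, n = 3), under those of MABs-allo-VEGF 7d and saline 7d. Saline 3d minus saline 7d was 0.10 on the log2 scale, 0.27 without saline 3d replicate 6, -0.37 without saline 3d replicate 8 and -0.16 with quantile normalization. MABs-allo was lower at 3d than at 7d by a log2 difference of -1.60 and MABs-allo-VEGF by -2.05 (standard error 0.66 each), given with no test because the 3d values chose the gene. The latter was -2.60 without MABs-allo-VEGF 3d replicate 4. MABs-allo-VEGF 3d minus MABs-allo 3d was 0.83, and 0.27 without MABs-allo-VEGF 3d replicate 4.

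Fibroblast markers (Pdgfra, Dcn, Lum, Col1a1 and Col3a1, 5 of 5 in the table and none at 0 throughout) moved with Dio3 in several samples. Their summed normalized counts ranged from 339580 to 510379 in saline 3d, from 54565 to 299904 after MABs-allo at 3d and from 92692 to 635832 after MABs-allo-VEGF at 3d. The highest of the last group was replicate 4, which also had the most Dio3 there. At 7d, MABs-allo replicate 13, the sample with 183 normalized counts of Dio3, had a sum of 606215 against 235869 to 254205 in the other 3. The match was not complete, since MABs-allo-VEGF 3d replicate 2 had 419054 and saline 7d only 193040 to 290693. MABs-allo-VEGF 7d replicates 6 and 7 had sums as far apart as 945696 and 190056 at similar Dio3, 149 and 154 normalized counts.

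Macrophage markers (5 of 5) summed to 6758 to 12747 in saline 3d, 703 to 7583 after MABs-allo and 2022 to 11427 after MABs-allo-VEGF at 3d. Schwann cell markers (5 of 5) summed to 30158 in saline 3d replicate 8, the sample with 333 normalized counts of Dio3, and to 2616 to 4022 in the other saline 3d samples. After MABs-allo at 3d they summed to 831 to 1796, and after MABs-allo-VEGF to 2298 to 9285. Mast cell markers (5 of 5) summed to 527 to 1936 in saline 3d, with replicate 8 highest, to 230 to 369 after MABs-allo and to 178 to 625 after MABs-allo-VEGF at 3d. Saline 3d replicate 8 also stood apart in fat markers, with a sum of 4582 against 59.8 to 145 in the other saline 3d samples. This was beside its low epithelial and smooth muscle sums. The part of these cell types in the Dio3 values was not tested.

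**Figure D2:**
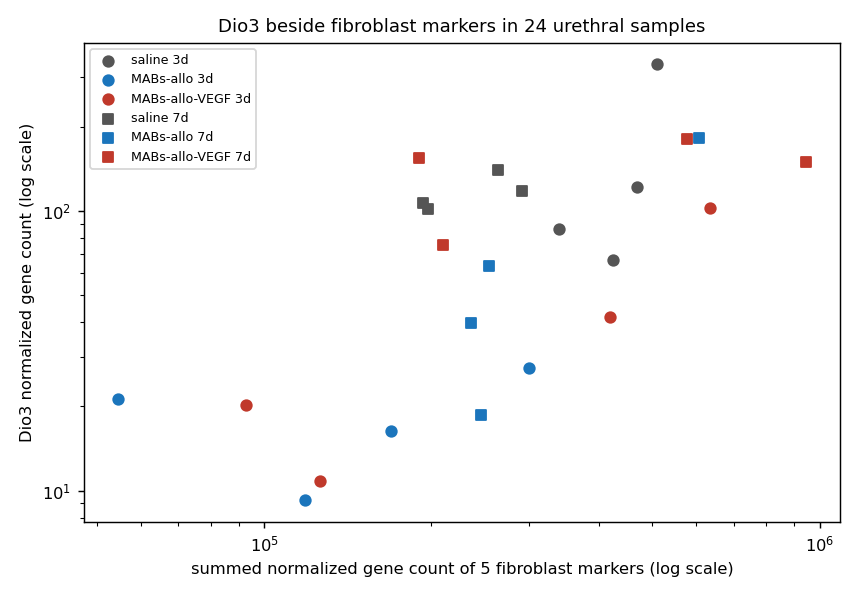
Dio3 normalized gene count (vertical log axis) against the summed normalized gene count of 5 fibroblast markers (horizontal log axis), with a point for each of the 24 samples, circles for 3d and squares for 7d. MABs-allo 3d samples lie at the lower left with sums of 54565 to 299904, and saline 7d samples hold 101 to 139 normalized counts of Dio3 at sums of 193040 to 290693.

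Thra, the receptor with broad expression in muscle, heart and brain, was present in every sample with at least 264 reads. Saline 3d samples had 2796, 4758, 4149 and 3934 normalized counts in replicates 6, 8, 9 and 10. MABs-allo 3d samples had 2265, 2741, 2806 and 3396, and MABs-allo-VEGF 3d samples had 2649, 2200, 2013 and 3184, each in replicates 1 to 4. The overlap with both cell-treated groups came from saline replicate 6, since the other saline samples lay above every cell-treated sample at 3d. Such separation was common with fewer samples. Without saline replicate 6 and MABs-allo-VEGF replicate 4, the MABs-allo-VEGF and saline groups were separate at 33.1% of all genes. In the lower direction they were separate at 11.8%.

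The means at 3d were 3909 ± 820 in saline, 2802 ± 464 after MABs-allo and 2512 ± 522 after MABs-allo-VEGF (SD, n = 4 each). The log2 differences from saline were -0.47 and -0.64 (standard error 0.22 each), given as a description. Without the 2 samples that stand apart they were -0.62 and -0.91, with means of 4281 ± 428 (SD, n = 3) in saline and 2288 ± 327 (SD, n = 3) after MABs-allo-VEGF. Scaling all samples to the same total shifted the median of all genes by -0.25 and -0.22 in these comparisons. MABs-allo-VEGF and MABs-allo did not differ beyond their spread at 3d (log2 difference -0.17, standard error 0.22, adjusted p = 0.936 from limma), where 0.00614% of all genes were called. This difference was -0.29 without MABs-allo-VEGF replicate 4.

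At 7d, Thra stood at 3243 ± 677 in saline, 3016 ± 886 after MABs-allo and 3396 ± 413 after MABs-allo-VEGF (SD, n = 4 each). Samples ranged from 2596 to 3930, from 2092 to 4204 and from 2793 to 3711, and all groups overlapped. No comparison at 7d passed, with log2 differences of -0.13, 0.08 and 0.21 (standard error 0.22) and adjusted p of 1, 0.985 and 1 from limma. The difference of MABs-allo from saline was 0.03 without MABs-allo replicate 11. That of MABs-allo-VEGF from saline was -0.02 without saline replicate 2, and -0.004 with all samples scaled to the same total.

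Between 3d and 7d, Thra in saline differed by 0.27 (adjusted p = 0.552 from limma), or 0.42 without saline 3d replicate 6, where 3.19% of all genes were called. In MABs-allo the difference was -0.07 and did not pass, where 23% of all genes were called, and its sign turned without MABs-allo 3d replicate 1 (0.02) or without MABs-allo 7d replicate 13 (0.10). The largest of these differences was in MABs-allo-VEGF, with -0.45 for 3d minus 7d (standard error 0.22, adjusted p = 0.151 from limma), where 15.3% of all genes were called. Without the 2 samples that stand apart it was -0.57 (adjusted p = 0.0555 from limma). By their means the groups ran from saline 3d through MABs-allo-VEGF 7d, saline 7d, MABs-allo 7d and MABs-allo 3d to MABs-allo-VEGF 3d, and each overlapped its neighbours.

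The end of the Thra gene overlaps that of Nr1d1, a circadian repressor gene on the opposite strand, in the RefSeq genes of GRCr8. Whether the authors counted reads by strand is not given in the sources used here, so reads of both genes may not be separate. Nr1d1 had 672 ± 288 normalized counts in saline 3d, 658 ± 425 after MABs-allo and 327 ± 227 after MABs-allo-VEGF at 3d (SD, n = 4 each). At 7d it had 1314 ± 639, 2830 ± 2675 and 1939 ± 413 (SD, n = 4 each). The mean of Nr1d1 was higher at 7d than at 3d in every treatment. That of Thra was also higher at 7d in MABs-allo and in MABs-allo-VEGF, and lower in saline. Over the 24 samples, which share groups and depth, the Pearson correlation of both genes on the log2 scale was 0.50.

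Thrb, the receptor that prevails in liver and in the pituitary, had 627, 439, 1265 and 809 normalized counts in saline 3d replicates 6, 8, 9 and 10. After MABs-allo at 3d it had 1250, 591, 997 and 825, and after MABs-allo-VEGF 1006, 583, 918 and 819, each in replicates 1 to 4. All 3 groups overlapped widely, and the highest and the lowest of these values were both from saline. The lowest samples of saline and of MABs-allo-VEGF were replicates 8 and 2, those with the low epithelial and smooth muscle sums. The part of these cell types in Thrb was not tested. The means were 785 ± 354, 916 ± 278 and 832 ± 182 (SD, n = 4 each).

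The log2 differences of Thrb from saline at 3d were 0.28 and 0.16 (standard error 0.36 each), the opposite sign to those of Thra and Dio3, again as a description. Without MABs-allo-VEGF 3d replicate 4 and saline 3d replicate 6 they were 0.20 and 0.09, and without saline 3d replicate 8 they were 0.03 and -0.08. With edgeR, whose scaling differs, they were 0.08 and -0.01. The difference of MABs-allo-VEGF from MABs-allo was -0.12 (standard error 0.36, adjusted p = 0.978 from limma) and -0.12 without MABs-allo-VEGF 3d replicate 4, and turned to 0.05 without MABs-allo 3d replicate 1 and likewise without MABs-allo-VEGF 3d replicate 2.

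At 7d, Thrb had 619, 373, 757 and 456 normalized counts in saline replicates 1, 2, 3 and 5. It had 505, 1083, 277 and 324 in MABs-allo replicates 7.2, 9, 11 and 13 and 533, 705, 723 and 687 in MABs-allo-VEGF replicates 6, 7, 11 and 12. MABs-allo replicate 9 was the high sample of the time point, and the other 3 of its group were among the low samples. The means were 551 ± 171, 547 ± 370 and 662 ± 87.1 (SD, n = 4 each), and no comparison passed, with log2 differences of -0.17, 0.31 and 0.48 (standard error 0.36) and adjusted p of 1, 0.952 and 1 from limma. The MABs-allo difference from saline was 0.08 without MABs-allo 7d replicate 11 and 0.004 without replicate 13.

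Thrb was higher at 3d than at 7d in the mean of each treatment. The log2 difference was 0.45 in saline (adjusted p = 0.536 from limma), 0.91 in MABs-allo (adjusted p = 0.0586 from limma) and 0.31 in MABs-allo-VEGF (adjusted p = 0.583 from limma), with a standard error of 0.36 each. Without the 2 samples that stand apart, the saline difference was 0.53 and that of MABs-allo-VEGF 0.31. The MABs-allo value was the closest to the threshold, and 1 sample decided its side. Without MABs-allo 7d replicate 9 the log2 difference was 1.31 (adjusted p = 0.00502 from limma), and without MABs-allo 3d replicate 2 it was 1.10 (adjusted p = 0.0347 from limma). Without MABs-allo 7d replicate 11 it was 0.65 (adjusted p = 0.202 from limma). edgeR on the reads gave 0.59 (adjusted p = 0.218) and DESeq2 0.74 (adjusted p = 0.118). The group means ran from MABs-allo 3d through MABs-allo-VEGF 3d, saline 3d, MABs-allo-VEGF 7d and saline 7d to MABs-allo 7d, with every group overlapping its neighbours.

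**Figure D3:**
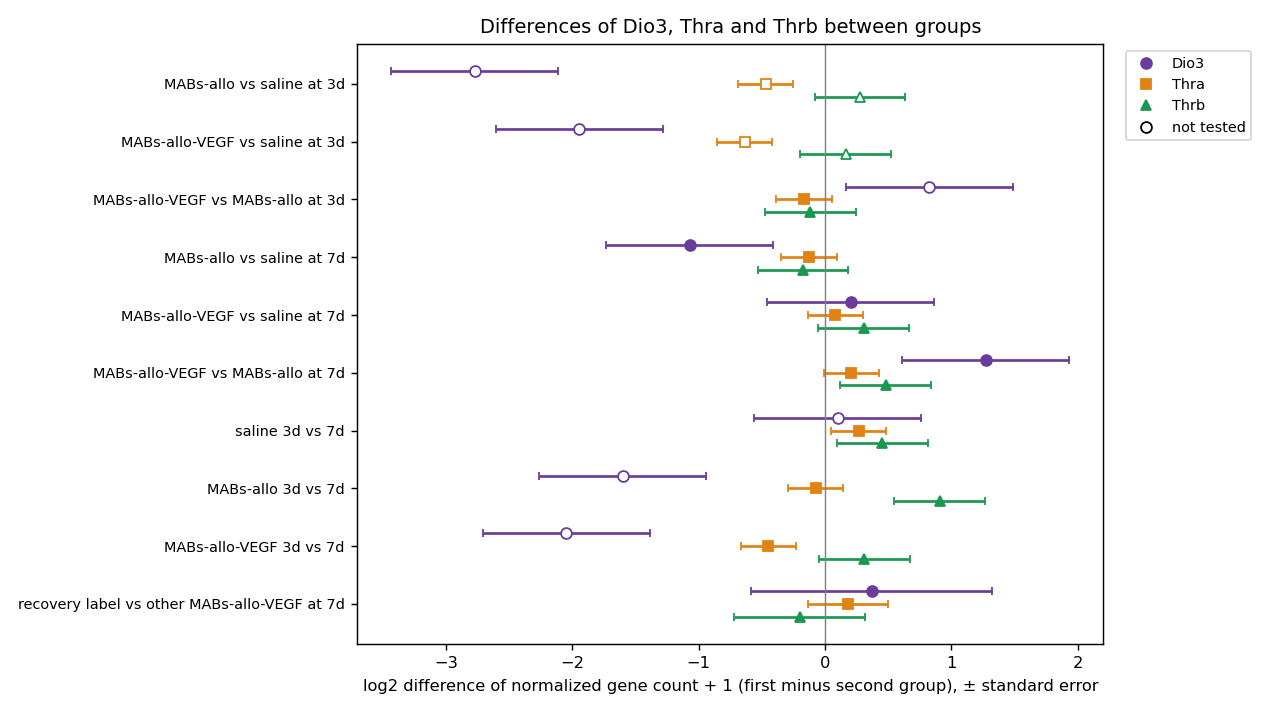
Log2 differences (horizontal axis, first minus second group, of normalized gene count + 1, with bars for the standard error) of Dio3, Thra and Thrb in the 10 comparisons (vertical axis). Open symbols mark values that were not tested, among them the Dio3 differences from saline of -2.77 and -1.94 at 3d, and none of the 20 filled values was called.

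In all, 20 tests of Dio3, Thra and Thrb were made and limma called 0. Of these, 1 had an unadjusted p below 0.05, that of Thrb between 3d and 7d in MABs-allo. edgeR and DESeq2 called 0 of the 20 each. Dio2 did not pass the filter on low values, a mean of at least 2 normalized counts, and was not tested.

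The samples labelled as recovery at 7d had 149 and 154 normalized counts of Dio3, against 180 and 75.7 in the other MABs-allo-VEGF samples. They lay between these, and the log2 difference was 0.37 (standard error 0.95, adjusted p = 1 from limma), or -0.25 without replicate 12. Thra had 3482 and 3711 against 3597 and 2793, a log2 difference of 0.18 (standard error 0.31, adjusted p = 1 from limma), or -0.001 without replicate 12. Thrb had 533 and 705 against 723 and 687, a log2 difference of -0.20 (standard error 0.52, adjusted p = 1 from limma). The share of genes called was 0%, with 443 genes at an unadjusted p below 0.05, 0 called by edgeR and 1 by DESeq2. With 2 samples against 2, the spread is that of all groups.

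The share of Thrb in the summed counts of both receptors gives their balance within a library, free of the scaling between samples. It is a share of counts from transcript ends, with no correction for length, and is given as a description. In saline 3d it was 18.3, 8.45, 23.4 and 17.1% in replicates 6, 8, 9 and 10. After MABs-allo at 3d it was 35.6, 17.7, 26.2 and 19.5%, and after MABs-allo-VEGF 27.5, 21.0, 31.3 and 20.5%, each in replicates 1 to 4. The lowest cell-treated sample lay above 2 of the 4 saline samples, and the groups overlapped through saline replicates 6 and 9.

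The mean share was 16.8 ± 6.20% in saline 3d, 24.8 ± 8.07% after MABs-allo and 25.1 ± 5.27% after MABs-allo-VEGF (SD, n = 4 each). Without saline replicate 6 and MABs-allo-VEGF replicate 4 the means were 16.3 ± 7.49% and 26.6 ± 5.24% (SD, n = 3 each). At 7d the means were 14.4 ± 1.86%, 15.4 ± 9.22% and 16.4 ± 2.66% (SD, n = 4 each), and samples ranged from 7.15 to 28.5%, both ends being MABs-allo samples.

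**Figure D4:**
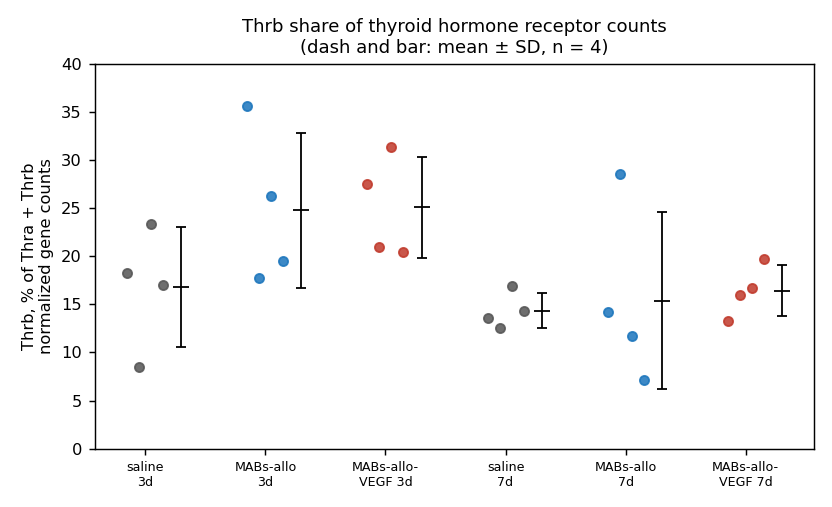
Share of Thrb in the normalized gene counts of Thra and Thrb together (vertical axis, %, from 0) in each sample of the 6 groups (horizontal axis), with a dash and bar for the mean and SD of the 4 samples. At 3d the cell-treated samples sit between 17.7 and 35.6% and saline between 8.45 and 23.4%.

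Over the 24 samples on the log2 scale, the Pearson correlation was 0.59 between Dio3 and Thra, -0.46 between Dio3 and Thrb and -0.04 between Thra and Thrb. The genes most like Dio3, among those with a mean of at least 20, were Crtapl1 (0.888), Kdelr1 (0.874), which returns proteins to the endoplasmic reticulum, Aldh7a1 (0.862), a lysine-degrading enzyme, Rab9a (0.859) and Shisa5 (0.858). Those most like Thra were the Notch ligand Dll4 (0.827), Plpp3 (0.822), Dhrs7 (0.804), Socs2 (0.804), an inhibitor of cytokine signalling, and Il17d (0.798). For Thrb they included Myrip (0.851), Ankrd6 (0.835), Gucy1a1 (0.831), a subunit of the nitric oxide receptor of smooth muscle, and Tle1 (0.807). The samples share groups and depth, so these values describe a likeness over the same 24 libraries.

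The genes that carry, bind and read out thyroid hormone were listed by name, with 94 of 101 in the table and 84 tested. The list of regulators and that of response genes were drawn from other tissues, and the lists were chosen with earlier results of these data known. In MABs-allo against saline at 3d, 3 rose and 4 fell, while 12.3% of all genes were called (9.4% higher and 2.86% lower). The median log2 difference was 0.02, beside 0.07 over all genes. In MABs-allo-VEGF against saline at 3d, limma called 0 of 84, with 12 at an unadjusted p below 0.05, 0 by edgeR and 0 by DESeq2, while 0.0307% of all genes were called.

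Of 8 transporters of thyroid hormone tested, 0 were called in MABs-allo against saline at 3d and their median was -0.97. Slc7a8, an amino acid transporter that also carries thyroid hormone, had 285 ± 200 (SD, n = 4) normalized counts after MABs-allo and 971 ± 791 (SD, n = 4) in saline, a log2 difference of -1.72 (standard error 0.65, adjusted p = 0.0731 from limma). Its partner chain Slc3a2 had a log2 difference of -0.84 (standard error 0.32). The difference was above 0 in 3 of the 8 transporters.

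Among 7 genes of hormone binding and metabolism, Sult1a1, a sulfotransferase, fell by 1.5 on the log2 scale (adjusted p = 0.019 from limma) and Marchf6, a ubiquitin ligase that degrades type 2 deiodinase, rose by 1.35 (adjusted p = 0.0422 from limma). Of 16 receptor partners and cofactors, the coactivators Ncoa2 and Ncoa3 rose by 4.80 (adjusted p = 0.0189 from limma) and 4.38 (adjusted p = 0.014 from limma). They had 148 ± 115 and 428 ± 264 normalized counts after MABs-allo against 6.91 ± 11.6 and 44.2 ± 71.6 in saline (SD, n = 4 each), and the saline reads of Ncoa2 were 8 in all. The other 14 were not called, among them the corepressor Ncor1, with a log2 difference of 0.76 (adjusted p = 0.04 from limma), which is short of the fold required. Of 16 genes known to respond to thyroid hormone, 0 were called, and Klf9, a widely used readout of T3, had a log2 difference of -0.14 (standard error 0.36, adjusted p = 0.816 from limma).

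As selenoproteins, deiodinases need selenocysteine, and the 8 tested genes of its insertion held 0 calls. Of 17 other selenoproteins, Gpx3, a glutathione peroxidase of plasma, fell by 1.70 (adjusted p = 0.0466 from limma) and Selenoh fell by 1.37 (adjusted p = 0.0147 from limma). Of 12 regulators described to induce Dio3 or Dio2, Gli1, the transcription factor and readout of Hedgehog signalling, fell by 2.38 (adjusted p = 0.00717 from limma). It had 73.6 ± 43.9 normalized counts after MABs-allo against 424 ± 393 in saline (SD, n = 4 each), with no overlap between the groups.

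Single samples decided most of these calls, and calls over all genes fell too. Fitted with only the groups compared, none of the 7 was called, while calls over all genes fell from 1997 to 11. Without saline 3d replicate 8 the call of Gli1 alone remained of the 7, and 369 remained over all genes. Sult1a1, Marchf6, Ncoa2 and Gpx3 also lost theirs without MABs-allo replicate 1 or without MABs-allo replicate 3, Ncoa3 without replicate 1 and Selenoh without replicate 3. Without saline 3d replicate 9 the calls of Marchf6, Ncoa2 and Gpx3 were lost, without saline 3d replicate 10 those of Marchf6 and Gpx3, without MABs-allo replicate 2 that of Marchf6 and without MABs-allo replicate 4 that of Gpx3. Their log2 differences kept their sign in these fits, from 4.24 to 5.79 for Ncoa2, 3.76 to 5.41 for Ncoa3, 1.14 to 1.78 for Marchf6, -2.40 to -1.05 for Gpx3, -1.59 to -1.03 for Selenoh, -1.82 to -1.12 for Sult1a1 and -2.76 to -1.83 for Gli1. The count of calls went from 7 to 13 without saline replicate 6 and MABs-allo-VEGF replicate 4, and that of MABs-allo-VEGF against saline from 0 to 3, where 13.6% of all genes were then called.

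At 7d, limma called 0 of the 84 genes in each comparison of the treatments, with 6 for MABs-allo against saline, 9 for MABs-allo-VEGF against saline and 2 between them at an unadjusted p below 0.05, and edgeR and DESeq2 called 0 each. Klf9 had 13725 ± 3525 after MABs-allo-VEGF and 16705 ± 11639 after MABs-allo against 6665 ± 1091 normalized counts in saline at 7d (SD, n = 4 each). Its log2 difference from saline was 1.02 (standard error 0.36) for both, with adjusted p = 0.625 and 0.732 from limma. The MABs-allo-VEGF samples (9766 to 18261) lay above the saline samples (5568 to 7894), in a comparison where groups were separate at 6.04% of all genes. MABs-allo samples (4796 to 31748) overlapped saline. Of the 16 response genes, Klf9 included, 7 lay above 0 against saline at 7d in MABs-allo (median log2 difference -0.23). In MABs-allo-VEGF, 8 of the 16 did (median -0.04). The list holds genes of lipid metabolism. Fat markers summed to 967 to 13534 normalized counts in saline 7d, 156 to 15658 in MABs-allo and 28.5 to 971 in MABs-allo-VEGF. Their part in these values was not tested. Ucp2, another response gene with a high mean, was lower than saline in both cell-treated groups (-0.33 in MABs-allo, -0.14 in MABs-allo-VEGF), with no call. For MABs-allo-VEGF against MABs-allo at 3d and for the recovery label, limma, edgeR and DESeq2 also called 0 of the 84 genes each. Of these genes, 6 and 3 had an unadjusted p below 0.05 from limma. In MABs-allo between 3d and 7d, 8 of the 84 were higher at 3d and 9 were lower, among 23% of all genes called (17% higher and 6.05% lower). Among the regulators, Shh, the Hedgehog ligand, was higher at 3d with 740 ± 751 against 18.1 ± 13.6 normalized counts (SD, n = 4 each, adjusted p = 0.0279 from limma). Gli1 was lower at 3d by -1.91 (adjusted p = 0.00564 from limma). Gli2 was at 0 in every MABs-allo 7d sample, and its 3d mean of 14.4 normalized counts rested on 9 reads. That mean was 6.3-fold a floor of 3 reads over the 7d group, a ratio that leaves out the counting error at 3d. Myod1, the myogenic regulator, was higher by 2.28 (adjusted p = 0.00596 from limma). The call of Shh was lost without MABs-allo 3d replicates 1 or 3 or MABs-allo 7d replicates 11 or 13, with log2 differences from 4.42 to 5.63 over all samples left out in turn.

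Among the cofactors, Ncoa2 was at 0 in every MABs-allo 7d sample. Its 3d mean was 64.7-fold a floor of 3 reads over the 7d group, with 3d samples from 10.8 to 263 normalized counts. As for Gli2, this ratio bounds the 7d group only and leaves out the spread at 3d. Ncoa3 was higher by 5.27 (adjusted p = 0.00108 from limma) and the coactivator Crebbp by 1.19 (adjusted p = 0.000712 from limma). Secisbp2, which binds the selenocysteine signal of deiodinase mRNA, was higher by 1.01 (adjusted p = 0.0177 from limma) and Usp33, a deubiquitinase of type 2 deiodinase, by 1.02 (adjusted p = 0.000923 from limma). Secisbp2 lost its call without MABs-allo 3d replicates 1 or 4 or MABs-allo 7d replicates 11 or 13 (0.80 to 1.20), and Usp33 without MABs-allo 3d replicates 1, 3 or 4 or MABs-allo 7d replicate 13 (0.90 to 1.23).

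The response genes Pck1, Thrsp, Fasn and Ucp2 were lower at 3d than at 7d in MABs-allo, by log2 differences of -4.76, -3.98, -1.44 and -1.16 (adjusted p = 0.0108, 0.0349, 0.00166 and 0.00295 from limma). All 4 are genes of lipid and energy metabolism. Fat markers (Adipoq, Plin1, Lep, Cidec and Retn, 5 of 5) summed to 35.5 to 175 normalized counts after MABs-allo at 3d and to 156 to 15658 at 7d, and their part in these genes was not tested. The call of Thrsp was lost without MABs-allo 3d replicates 1, 3 or 4 or MABs-allo 7d replicates 7.2, 11 or 13 (log2 differences of -4.86 to -3.23), and those of Pck1 (-5.81 to -3.83) and Ucp2 (-1.46 to -0.95) without MABs-allo 7d replicate 11. Slc3a2 (-1.30), Sult1a1 (-1.06), Gpx3 (-1.92) and Selenoh (-1.53) were also lower at 3d. Sult1a1 lost its call without MABs-allo 3d replicates 1 or 3 or MABs-allo 7d replicates 7.2 or 9 (-1.29 to -0.75), and Gpx3 without MABs-allo 3d replicate 1 (-2.13 to -1.63).

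In MABs-allo-VEGF between 3d and 7d, 6 were higher at 3d and 2 were lower, among 15.3% of all genes called (13.1% higher and 2.24% lower). Ncoa3 (5.40), Ncoa2 (4.06), the acetyltransferase Ep300 (1.93), Crebbp (1.01), Secisbp2l (1.12) and Hif1a (1.02), the hypoxia factor described to induce Dio3, were higher. Fasn (-1.58) and Ucp2 (-1.02) were lower. Ncoa3 and Fasn kept their call in each of the 8 fits that left out 1 sample, and Secisbp2l lost it without MABs-allo-VEGF 7d replicate 12 (0.81 to 1.38). The other calls were lost without 7d replicate 12 or 3d replicate 2, and also without 3d replicate 3 (Ncoa2, Ep300, Crebbp, Hif1a), 3d replicate 1 (Ncoa2, Ep300, Crebbp), 3d replicate 4 (Ucp2), 7d replicate 6 (Ncoa2, Hif1a), 7d replicate 7 (Ncoa2, Ep300, Crebbp, Hif1a) or 7d replicate 11 (Ep300, Crebbp, Ucp2, Hif1a). The log2 differences with 1 sample left out were 0.65 to 1.25 for Hif1a, 3.31 to 5.58 for Ncoa2, 1.52 to 2.18 for Ep300, 0.94 to 1.16 for Crebbp and -1.17 to -0.88 for Ucp2. In saline, 0 were higher and 3 lower at 3d, among 3.19% of all genes called (2.59% higher and 0.602% lower). These were Pck1 (-5.04), Ucp3 (-1.60) and Me1 (-1.41), and none was called without saline 3d replicate 6, 7d replicate 3 or 7d replicate 5. Calls over all genes fell from 520 to 22, 153 and 38 in these fits. Pck1 and Ucp3 also lost their call without 3d replicate 9 or 7d replicate 2, and Pck1 without 3d replicate 10, with ranges of -6.50 to -4.12 for Pck1, -1.88 to -1.34 for Ucp3 and -1.79 to -1.20 for Me1. Fat markers summed to 59.8 to 4582 in saline 3d and to 967 to 13534 in saline 7d.

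**Figure D5:**
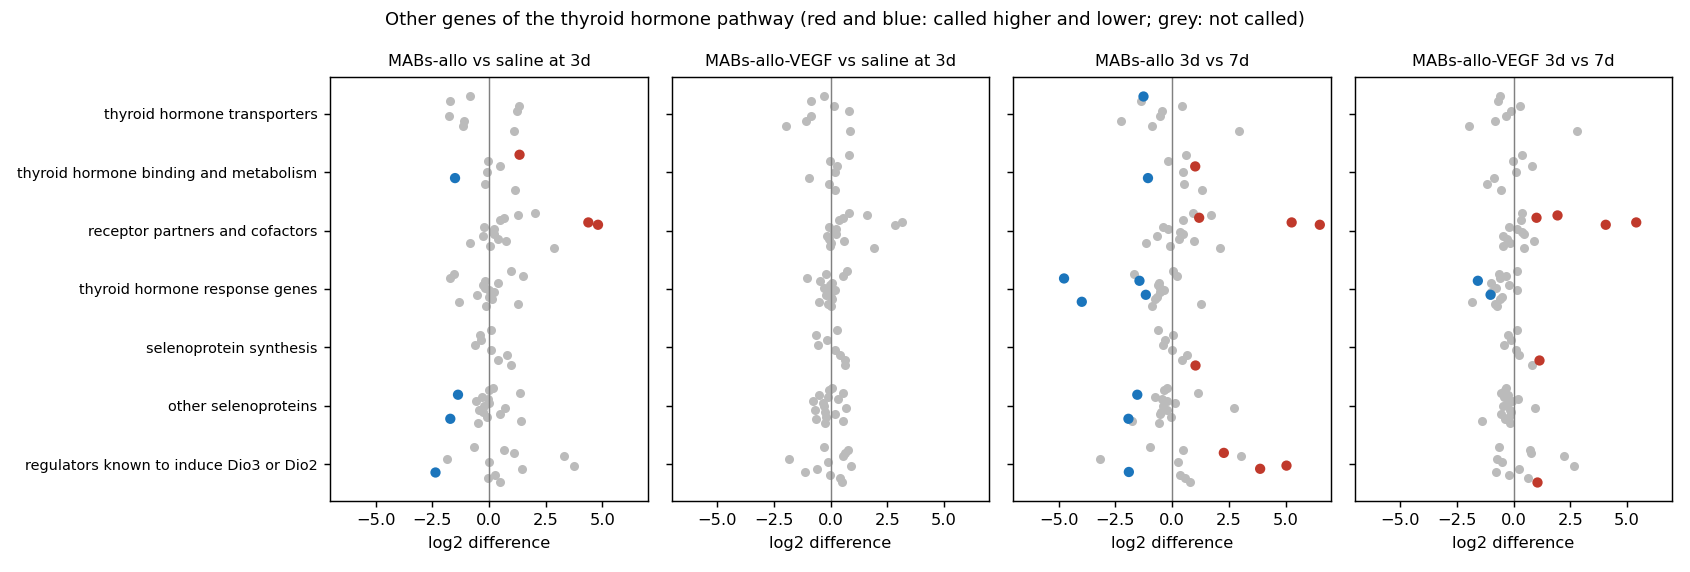
Log2 differences (horizontal axes) of the tested genes of each thyroid hormone list (rows) in 4 comparisons (panels), with red points for genes called higher, blue for genes called lower and grey for the rest. MABs-allo against saline at 3d has 3 red and 4 blue points, and MABs-allo-VEGF against saline has none.

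Dio3 lies in an imprinted region with Dlk1 and several noncoding RNA genes. Of the 6 genes listed for that region, only Dlk1 was in the table, and none passed the filter on low values. Of the 10 protein-coding genes nearest to Dio3 in the RefSeq order of GRCr8, chosen after the values were seen, 8 were tested in MABs-allo against saline at 3d, where 12.3% of all genes were called. Dync1h1, the heavy chain of dynein, rose by 3.55 (adjusted p = 0.0087 from limma) and Mok, a kinase gene, fell by 1.76 (adjusted p = 0.0202 from limma). The median of the 8 was 0.05, and 0 were called in MABs-allo-VEGF against saline at 3d, where 0.0307% of all genes were called. Both calls were lost with only the groups compared, where 11 genes were called over all genes. That of Mok was also lost without saline 3d replicate 8 or MABs-allo 3d replicate 3 (-1.37 to -1.98 with 1 sample left out). Dync1h1 was also higher at 3d than at 7d in saline (3.05), MABs-allo (4.84) and MABs-allo-VEGF (3.99), among 3.19, 23 and 15.3% of all genes called, and Mok was lower at 3d in MABs-allo (-1.77). The call of Dync1h1 in saline was lost without saline 3d replicates 6, 9 or 10 or saline 7d replicates 1, 3 or 5 (2.25 to 3.77).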

How the data were processed

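QuantSeq 3ʹ libraries of urethral RNA from 24 samples were aligned by the authors to Rnor6.0 with HISAT2 after adapter filtering, and reads per gene were counted with HTSeq. The deposited signal is the gene count over a DESeq2 size factor. Every sample's values were 100% whole multiples of its smallest step (tolerance 0.01 reads), which recovered the reads, at 1.67 to 9.23 normalized counts per read.

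Normalized gene counts, on a log2 scale after adding 1 (changes of low genes are understated), were fitted for the 6 groups together by limma 3.58.1 (R 4.3.3, eBayes with trend, two-sided), keeping genes with a mean of at least 2. The recovery label had a fit of 7 groups. The fit was checked on simulated data with a fixed spread and with changes set only in genes of higher mean than Dio3. This check does not cover genes as low as Dio3. Design choices foresaw a test of Dio2, which the filter removed. Alternatives were edgeR 4.0.16 and DESeq2 1.42.0 on reads, another pseudocount (5), other filters (none, or a mean of 10), quantile or total scaling, fits of the compared groups alone, a replicate block and samples left out. CPM values and the neighbours of Dio3 were added after the data were seen.

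The 4 genes and all lists were chosen with earlier results of these data known. Named were, per list and comparison, at most 4 called genes by size or otherwise up to 2 with the highest means. Ncor1 was added beside called genes after its values were seen. Some genes that the rule names are not reported here. Positions are not given, since the RefSeq table has another build.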

Additional observations from a re-analysis of the deposited data

How the results depend on the processing

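Values of Dio3, Thra and Thrb that were not tested were compared with the spread between replicates, and tested values by sign and call. Outside the fits that left out 1 sample, 1 value that was not tested moved by more than this spread. It was the Dio3 difference between 3d and 7d in MABs-allo, at -2.61 with quantile normalization. The Thra difference of MABs-allo-VEGF from saline at 7d turned to -0.004 with samples scaled to the same total, and the cause was not tested. The Dio3 difference between 3d and 7d in saline, which was not tested, ranged from -0.37 to 0.39 with 1 sample left out and was -0.16 with quantile normalization. Leaving out 1 sample at a time gave from -0.25 to 0.99 for Dio3 with the recovery label and from -0.001 to 0.36 for Thra with that label. The ranges for Thra were -0.30 to 0.034 for MABs-allo and -0.018 to 0.18 for MABs-allo-VEGF against saline at 7d and -0.24 to 0.10 between 3d and 7d in MABs-allo. For Thrb they were -0.31 to 0.052 for MABs-allo-VEGF against MABs-allo at 3d, -0.57 to 0.08 for MABs-allo against saline at 7d and 0.65 to 1.31 between 3d and 7d in MABs-allo, the last being past the threshold without MABs-allo 3d replicate 2 or MABs-allo 7d replicate 9.

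The count of pathway genes called in MABs-allo against saline at 3d was 7, against 13 without the 2 samples that stand apart, 0 with only the groups compared, 11 with DESeq2 and 1 to 12 with 1 sample left out. For MABs-allo-VEGF against saline at 3d it was 0, against 3 without these 2 samples and 0 to 2 with 1 left out. For saline 3d against 7d it was 3, against 0 without the 2 samples, 0 with only the groups compared, 8 with DESeq2 and 0 to 9 with 1 left out. For MABs-allo-VEGF 3d against 7d it was 8, against 5 with quantile normalization, 4 scaled to the same total, 5 with only the groups compared and 2 to 10 with 1 left out. Called pathway values had 594 alternative values over 35 pairs of gene and comparison, of which 461 kept the call, 133 lost it and 0 changed sign.

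The number of all genes called ranged from 11 to 2954 in MABs-allo against saline at 3d (1997 in the fit reported), 0 to 2214 in MABs-allo-VEGF against saline (5), 0 to 4 between the cell treatments at 3d (1), 5 to 1387 in saline between 3d and 7d (520) and 1744 to 3315 in MABs-allo-VEGF between 3d and 7d (2497). At 7d it ranged from 0 to 5, 0 to 29 and 0 to 5, and for the recovery label from 0 to 5, each against 0. Scaled to the same total, the 1531 higher and 466 lower calls of MABs-allo against saline at 3d became 1109 and 1021, and with quantile normalization 1253 and 975. Scaling shifted the median of all genes by up to -0.27.

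Equal replicate numbers are shared by the cell-treated groups at 3d. Same-numbered samples deviated together with correlations of 0.222, 0.151, 0.073 and 0.254 for numbers 1 to 4. The best correlations with another number were 0.2, 0.024, 0.079 and -0.014, so number 3 alone correlated better with another number. Whether same-numbered samples share more than a number cannot be told from these values. With the replicate number as a block, 0 genes were called between these groups against 1, and 1188 against 999 had an unadjusted p below 0.05. Thra was at -0.17 (adjusted p = 0.817 from limma) and Thrb at -0.12 (adjusted p = 0.851 from limma) in that fit, and no call of these genes changed. Depth limits Dio2, with 0 reads, and Dio3, which had 3 reads or fewer in 4 samples.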
